A study of Mus musculus with 16 samples.

Results

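The RNA that sat on polysomes of normal mouse gastrocnemius, a large calf muscle of mixed fibre type, was set against the total RNA of the same muscle. Both RNAs came from 3 wild-type (WT) male mice, Eif6+/+ littermates on a C57BL6 background aged between 8 and 16 weeks, and no treatment was given. Per the study's design every RNA came from each of these mice, so 6 of the 16 arrays of the series carry the comparison. The polysome and whole-muscle arrays with the same replicate number were taken as those of one mouse, which the labels do not spell out. The 3 Het mice, which keep 1 functional copy of Eif6, were measured in the same way. They enter below as a second set of ratios, in the normalization and in the spread that the test shares over both genotypes. The members were the non-control probes well above background on all 3 WT polysome arrays or on all 3 WT whole-muscle arrays. They numbered 18597 of the 55681 non-control probes on the array.

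A polysome is an mRNA that carries several ribosomes, and a sucrose gradient separates it from single ribosomes and from free mRNA by its weight. An mRNA that initiates well therefore sediments with polysomes, whereas a repressed mRNA, a nuclear RNA or a non-coding RNA is found mostly in lighter fractions or stays out of the lysate. Ribosomal protein and elongation factor mRNAs begin with a 5′-terminal oligopyrimidine tract (TOP), through which mTOR signalling moves them on and off polysomes, and ferritin and ornithine decarboxylase mRNAs are classical examples of regulated translation. Mitochondrial DNA is transcribed and translated inside the organelle on its own ribosomes.

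In this study the lysate was layered on a 15 to 50% sucrose gradient and the fractions with at least 2 ribosomes were pooled, whereas total RNA was extracted from muscle directly. The way in which the RNA was prepared and the presence of ribosomes on it therefore cannot be told apart. Values are log2 signals after quantile normalization, and the ratio of a mouse is its whole-muscle log2 value subtracted from its polysome log2 value. A ratio ranks a transcript against the other transcripts on the arrays and does not give the share of its molecules on ribosomes. In a whole muscle, fewer cells of a type and less RNA per cell cannot be told apart either.

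The sequences that bear on the results are shown first. Of the 77 cytosolic ribosomal protein genes on the array, 56 had a RefSeq window around an annotated start (GRCm38.p6). The transcript strand was searched for a C exactly at the annotated start followed by at least 4 bases that are all C or T. Such a run was found for 14 of the 56 genes (25%), against 813 of all 27025 genes with a window (3.01%). When a C followed by at least 6 such bases was accepted anywhere from 20 bases before to 50 bases after the start, the counts were 45 of 56 genes (80.4%) and 8893 of 27025 genes (32.9%). Among the nuclear complex I genes, the same wider search found 5 of 33 genes, and among those of complexes II to V it found 8 of 33. Exactly at the start, a run was found for 1 (3.03%) and 3 (9.09%) of these genes. The 30 bases around the start are given for 4 of the 14 ribosomal protein genes with a run, among them those with the lowest (Rpl15) and the highest (Rpl38) polysome ratio, and for 2 respiratory chain genes with high ratios, with 10 bases before the start. Capitals mark the pyrimidine run from the start or, without a run, the first transcribed base.
Rpl15 (chr14:18270967-18270996, minus strand): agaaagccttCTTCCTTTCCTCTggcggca
Rps6 (chr4:86857348-86857377, minus strand): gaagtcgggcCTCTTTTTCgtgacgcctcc
Fau (chr19:6057937-6057966, plus strand): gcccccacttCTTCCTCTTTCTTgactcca
Rpl38 (chr11:114668570-114668599, plus strand): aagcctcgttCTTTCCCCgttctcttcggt
Ndufb3 (chr1:58586387-58586416, plus strand): taaagattccGtcctggagcaagacaaaca
Atp5k (chr5:108434380-108434409, minus strand): tctgtcttccGcctcagttgagcttccggc

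The array probes of 3 transcripts at the low end or apart from their class are shown as well, in transcript direction and with mm9 coordinates from the array design. ND1 and ND6 are coded by opposite strands of mitochondrial DNA, and Rnu3b1 is a U3 small nucleolar RNA of the nucleolus.
ND1 (chrM:2898-2957): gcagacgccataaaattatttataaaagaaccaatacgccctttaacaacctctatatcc
ND6 (chrM:13552-13611): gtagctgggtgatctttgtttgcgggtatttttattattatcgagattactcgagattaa
Rnu3b1 (chr11:87285025-87285084): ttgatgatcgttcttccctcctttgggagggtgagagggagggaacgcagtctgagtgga

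The muscle was well represented, as all 10 fibre markers were well above background on every WT array. One array stood apart. Over 618 transcripts with 2 probes at least 500 bases apart, the probe nearer the 5′ end was dimmer on 5 of the 6 arrays, by a median log2 difference between -1.55 and -1.21. On the polysome array of mouse 2 the difference was 0.12. Over the 14299 members that the scanner software marked well above background on every one of the 6 WT arrays, called measured below, the ratios of mice 1 and 3 correlated at r = 0.71, whereas mouse 2 reached r = 0.48 with mouse 1 and 0.57 with mouse 3. These coefficients are across probes, which are not independent replicates, and the probes share their arrays. Results are therefore given with all 3 mice and, for several classes and genes, also without mouse 2. Arrays lay on 2 slides, and each mouse had its polysome array on one and its whole-muscle array on the other, with mouse 3 placed the opposite way to mice 1 and 2.

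Polysomal and total RNA differed in both directions. Of the 18554 members with a value on all 12 arrays of both genotypes, 4547 (24.5%) passed an adjusted p of 0.05 in limma's moderated test of the WT mean ratio, 2283 (12.3%) higher on polysomes and 2264 (12.2%) lower. With a mean log2 ratio beyond 1 as well, 1353 (7.29%) were higher and 1869 (10.1%) lower, or 3222 (17.4%) in all. A member that passed the background filter in 1 RNA only had to differ, and 960 members did so through the polysome arrays and 3295 through the whole-muscle arrays. Of these, 35 were well above background on no whole-muscle array and 204 on no polysome array. For the 35, the polysome signal was at least 1.86-fold higher at the median. For the 203 of the 204 that were tested, the whole-muscle signal was at least 1.77-fold higher at the median. The counts below therefore use what was measured on all 6 WT arrays, namely 14299 probes (14.2% higher, 11% lower) and, with the brightest probe per gene, 9746 genes. Of these genes 1411 (14.5%) were higher and 970 (9.95%) lower, with a median log2 ratio of 0.15. In 2265 genes (23.2%) every polysome array was above every whole-muscle array, and in 1561 (16%) every one was below.

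The number of calls fell when a mouse was left out, by an amount that depended on the mouse. Without mouse 1 the gene calls fell to 551 higher (5.65%) and 618 lower (6.34%), without mouse 2 to 1075 (11%) and 910 (9.34%), and without mouse 3 to 221 (2.27%) and 355 (3.64%). The same call was made whichever of the 3 mice was left out in 165 genes for the higher side (1.69%) and 308 for the lower side (3.16%), and these are named below as the calls that held without each mouse. When the Het ratios were set against the WT ratios, 0 of 18554 probes differed after adjustment in limma and 3201 (17.3%) had an unadjusted p below 0.05. Without WT mouse 2 the difference was called for 504 probes (2.72%). Nothing below is thus described as particular to WT.

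The lowest ratios of any class belonged to transcripts of mitochondrial DNA. Of the 13 protein-coding transcripts, 12 were lower on polysomes and 0 higher, against 9.95% lower over all genes, and the median log2 ratio was -3.82. It was -3.66, -4.96 and -2.65 in mice 1, 2 and 3, and -2.96 over mice 1 and 3, where the same number, 12, were lower. Of the 12, 10 calls held without each mouse. ND1, a core subunit of complex I, read 6.78, 6.37 and 8.16 on the polysome arrays of mice 1, 2 and 3 and 13.19, 12.30 and 12.10 on their whole-muscle arrays. No polysome array came near a whole-muscle array, and the mean log2 ratio was -5.43 ± 1.31 (SD, n = 3 mice; adjusted p = 0.0027, limma), 43.1-fold lower on polysomes. CYTB, the cytochrome b of complex III, read 12.75, 10.20 and 13.77 on polysome arrays and 16.48, 16.63 and 16.48 on whole-muscle arrays. Its log2 ratio was -4.29 ± 1.93 (SD, n = 3; adjusted p = 0.0070, limma), with mouse 2 the lowest.

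Within the class the cytochrome oxidase subunits COX1 and COX2 had log2 ratios of -2.67 and -2.61 and the call of COX2 was lost without mouse 3 (adjusted p = 0.065, limma). ND4L had the smallest drop, -2.03. ND6 went the other way. It is the one subunit coded by the opposite strand, its probe being the one printed above, and its polysome signals of 7.38, 7.89 and 7.57 lay above whole-muscle signals of 5.50, 7.28 and 7.23. Its log2 ratio of 0.94 ± 0.82 (SD, n = 3) was not called (adjusted p = 0.063, limma). The median of the class was -4.53 within slide 1, -2.53 within slide 2 and -3.67 with the slide as a term in the fit. In the Het mice it was -1.88.

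Nuclear genes of the same respiratory chain lay on the other side. These subunits are translated on cytosolic ribosomes and imported. Of 37 complex I subunits, 16 were higher on polysomes and 1 lower, against 14.5% and 9.95% over all genes, with a median log2 ratio of 0.59 (0.76, 0.70 and 0.55 in mice 1, 2 and 3). Of 40 measured subunits of complexes II to V, 17 were higher and 0 lower, with a median of 0.65 (0.80, 0.81 and 0.53). The medians of both classes lay between 0.54 and 0.66 within either slide. Without mouse 2 the counts were 16 and 14 higher. Without mouse 3 they fell to 5 and 6, and 5 complex I and 4 complex II to V calls held without each mouse.

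Ndufb3, an accessory subunit of complex I, read 12.83, 12.50 and 12.55 on polysome arrays and 10.90, 11.22 and 11.14 on whole-muscle arrays. The groups did not overlap, and the log2 ratio was 1.54 ± 0.34 (SD, n = 3; adjusted p = 0.0067, limma). Atp5k, a small subunit of ATP synthase, read 14.62, 14.75 and 14.27 against 13.02, 12.93 and 13.04, a log2 ratio of 1.55 ± 0.30 (SD, n = 3; adjusted p = 0.0054, limma), and its other 2 probes gave 1.38 and 1.29. Both genes were called without each mouse. Ndufs8 was the exception among complex I genes. It read 8.14, 10.01 and 8.99 on polysome arrays and 10.54, 10.59 and 10.51 on whole-muscle arrays, and its log2 ratio of -1.50 ± 0.91 (SD, n = 3; adjusted p = 0.023, limma) was lost without mouse 1 or without mouse 3. Sdha, the flavoprotein of complex II, had the lowest ratio of the complex II to V list at -0.18 and was not called (adjusted p = 0.58, limma). Class members cited outside the rule for named genes were picked after their values were seen.

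Cytosolic ribosomal protein mRNAs were low on polysomes as a class. All 77 genes on the array were measured, 32 were lower and 0 higher, against 9.95% and 14.5% over all genes, and 72 had a mean ratio below 0, with a median log2 ratio of -0.69 against 0.15 over all genes. The medians were -0.38, -0.79 and -0.88 in mice 1, 2 and 3, -0.87 and -0.59 within slides 1 and 2, and -0.63 without mouse 2, where 28 were lower. Without mouse 3 the number fell to 13, and 13 calls held without each mouse. In the Het mice the median was -0.73. Many of these genes have processed pseudogenes of near-identical sequence, so a probe may read more than one of them.

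The spread within the class was wide. Rps19, a small-subunit protein, had the lowest ratio. It read 8.64, 8.96 and 8.46 on polysome arrays and 11.43, 10.93 and 11.16 on whole-muscle arrays, a log2 ratio of -2.49 ± 0.45 (SD, n = 3; adjusted p = 0.0030, limma). Rps6, the substrate of S6 kinase, read 11.80, 10.80 and 11.67 against 12.81, 12.52 and 12.73, a log2 ratio of -1.26 ± 0.40 (SD, n = 3; adjusted p = 0.012, limma), and its other probes gave -1.81 and -1.59. Rpl38, by contrast, had the highest ratio of the class at 0.43 ± 0.21 (SD, n = 3) and was not called (adjusted p = 0.17, limma). It read 13.70, 13.35 and 13.28 on polysome arrays and 13.07, 12.90 and 13.05 on whole-muscle arrays, so that all 3 polysome arrays were above all whole-muscle arrays. Rpl3, which sits at the peptidyl transferase centre, was at -0.07 (adjusted p = 0.85, limma). Both Rps6 and Rpl38 begin with a pyrimidine run in the windows printed above. Over the genes with a window, those with a run exactly at the annotated start had a median ratio of -0.66 with 4 of 14 lower, and those without had a median of -0.70 with 19 of 42 lower.

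Elongation factors and other known TOP mRNAs were mostly low. Of 18 genes, 15 had a ratio below 0, 7 were called lower and 1 higher, against 9.95% and 14.5% over all genes, with a median log2 ratio of -0.47, and 7 were also lower without mouse 2. The median moved to -1.03 when all probes of a gene were averaged, and it was -0.57 and -0.39 within slides 1 and 2. Eif3e, a subunit of initiation factor eIF3, had the lowest value. It read 5.47, 6.30 and 6.12 on polysome arrays and 9.0, 9.16 and 9.49 on whole-muscle arrays, a log2 ratio of -3.25 ± 0.35 (SD, n = 3; adjusted p = 0.0025, limma). Tpt1, which codes for the translationally controlled tumour protein, had polysome signals of 13.87, 12.26 and 13.84 against 15.79, 15.91 and 16.49. Its ratio was -2.74 ± 0.87 (SD, n = 3; adjusted p = 0.0040, limma), and the groups were far apart. The single gene called higher was Eef1d, an exchange factor subunit, at 0.69 ± 0.21 (SD, n = 3; adjusted p = 0.045, limma), a call lost without mouse 1 and without mouse 3. Eef1a1, the factor that brings tRNA to the ribosome, was at -0.36 (adjusted p = 0.33, limma) and the translocase Eef2 at -0.77 (adjusted p = 0.060, limma).

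Initiation factors had few calls. Of 29 initiation factors measured on all 6 arrays, 1 was higher and 4 lower, against 14.5% and 9.95% over all genes, with a median of -0.13. Eif3e, counted above with the TOP mRNAs, is not among the 29. Without mouse 2 the counts were 3 higher and 4 lower, without mouse 1 they were 1 and 1, and without mouse 3 they were 0 and 1. The one higher with all 3 mice was Eif6, the factor that keeps free large subunits from joining and the gene deleted on one allele in the Het mice. In the WT mice it read 10.54, 10.997 and 10.24 on polysome arrays and 9.95, 9.44 and 9.26 on whole-muscle arrays. The log2 ratio was 1.04 ± 0.48 (SD, n = 3; adjusted p = 0.022, limma), a call lost without mouse 3, and its second probe gave 0.75 (adjusted p = 0.068, limma). At the low end Eif3i, another eIF3 subunit, was at -2.79 ± 1.22 (SD, n = 3; adjusted p = 0.0074, limma) and kept its call without each mouse. Of 18 aminoacyl-tRNA synthetases, 4 were higher and 2 lower (median 0.08), and without mouse 1 or without mouse 3 none was higher and 1 was lower. Dars, which charges aspartate, was at 1.63 and Iars, which charges isoleucine, at -1.76, with adjusted p-values of 0.023 and 0.014 in limma. The call of Dars was lost without mouse 1 and without mouse 3, and that of Iars held without each mouse.

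Mitochondrial ribosomal proteins, which are nuclear-coded, were spread on both sides. Of 75 genes measured on all 6 arrays, 9 were higher and 6 lower, close to the shares over all genes, with a median of 0.14 (0.18, 0.28 and -0.05 in mice 1, 2 and 3). Without mouse 2 the median was 0.04, with 7 higher and 10 lower, against 11% and 9.34% over all genes. None of the 67 with a window had a pyrimidine run exactly at the start. The extremes were Mrpl20 at 1.18 ± 0.33 (SD, n = 3; adjusted p = 0.013, limma) and Mrpl42 at -2.06 ± 1.06 (SD, n = 3; adjusted p = 0.013, limma), and the call of Mrpl42 was lost without mouse 3. The TCA cycle (1 higher and 3 lower of 18) and fatty acid oxidation (4 higher and 0 lower of 20) had medians of -0.10 and 0.04, and their counts lay near the 14.5% and 9.95% of all genes. Mouse 2 set these medians apart. Their medians were -0.81 and -0.29 in that mouse, and 0.27 and 0.26 without it. Of 21 genes of glycolysis and glycogen, 3 were higher and 0 lower, among them Gys1, the muscle glycogen synthase, at 1.03 (adjusted p = 0.028, limma). A second Gys1 probe was called lower, at -1.32 (adjusted p = 0.038, limma), so the 2 probes disagreed. Without mouse 1 or without mouse 3 no gene of that class was called.

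Contractile protein mRNAs did not move as a block. Of 32 sarcomere genes, 6 were higher and 4 lower, with a median of -0.21 that became 0.07 without mouse 2. The shares over all genes were 14.5% and 9.95%. The 6 higher genes were Tnnt1, Myl3, Tcap, Mybpc1, Myl2 and Tpm3, and the 4 lower genes were Acta1, Actn3, Tmod1 and Mylpf. None of these 10 calls held without each mouse.

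Tnnt1, the slow troponin T, read 12.39, 13.12 and 11.60 on polysome arrays and 11.22, 12.03 and 10.17 on whole-muscle arrays. The groups overlapped, but within each mouse the polysome array was higher, and the log2 ratio was 1.23 ± 0.18 (SD, n = 3; adjusted p = 0.010, limma). The call was lost without the pairing (adjusted p = 0.091, limma) and without mouse 3. Within slide 2 alone, without the pairing, it was -0.023, and a second Tnnt1 probe gave 0.59 (adjusted p = 0.083, limma). Acta1, the skeletal α-actin, read 16.09, 16.95 and 16.62 against 18.08, 17.47 and 17.43, a ratio of -1.11 ± 0.77 (SD, n = 3; adjusted p = 0.036, limma). Mylpf, the fast regulatory light chain, was at -1.92 ± 1.60 (SD, n = 3; adjusted p = 0.036, limma), and mouse 2 showed almost no difference, with 8.83 on the polysome and 9.03 on the whole-muscle array. Creatine kinase Ckm was at -1.38 (adjusted p = 0.055, limma), the oxygen-binding protein myoglobin Mb at 0.63 (adjusted p = 0.060, limma) and the fast myosin Myh4 at -0.35 (adjusted p = 0.49, limma). With the authors' processed table Myh4 was lower, at -1.18 (adjusted p = 0.0041, limma).

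Giant muscle proteins, whose coding regions are very long, had a median of -0.04, with 3 genes higher and 2 lower of 18, near the 14.5% and 9.95% of all genes. The probe for titin (Ttn), the molecular spring of the sarcomere, read 13.55, 11.70 and 13.16 on polysome arrays and 12.81, 13.65 and 13.06 on whole-muscle arrays. Mouse 2 ran opposite to mouse 1, and the ratio was -0.37 ± 1.40 (SD, n = 3; adjusted p = 0.60, limma). Of the other 3 Ttn probes, 1 was called lower at -1.03 (-1.02, -1.13 and -0.95 in mice 1, 2 and 3; adjusted p = 0.014, limma), and those at -0.32 and 0.37 were not called. Among calcium-handling genes (2 higher and 1 lower of 22, median -0.02), the fast calcium pump Atp2a1 was among the lowest of all genes. Its polysome arrays read 9.51, 11.69 and 11.66 and its whole-muscle arrays 14.39, 14.26 and 13.48, a log2 ratio of -3.09 ± 1.59 (SD, n = 3; adjusted p = 0.011, limma), 8.49-fold lower. The histidine-rich calcium-binding protein Hrc was at the other end with 1.16 (adjusted p = 0.023, limma), a call lost without mouse 1 and without mouse 3.

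Of the mRNAs known for translational control, Fth1 and Odc1 were low and Azin1 was high. Fth1, the ferritin heavy chain, whose iron-responsive element holds back initiation when iron is scarce, read 13.34, 11.56 and 12.77 on polysome arrays and 14.96, 15.01 and 15.53 on whole-muscle arrays. The groups were separate and the log2 ratio was -2.61 ± 0.92 (SD, n = 3; adjusted p = 0.0053, limma), 6.09-fold lower. Odc1, ornithine decarboxylase of polyamine synthesis, was at -0.99 ± 0.33 (SD, n = 3; adjusted p = 0.022, limma), and its 3 other probes gave -1.65, -1.58 and -1.20, all called. The call of the brightest Odc1 probe was lost without mouse 3 (adjusted p = 0.097, limma) and without the pairing (adjusted p = 0.11, limma). Azin1, the antizyme inhibitor that stabilises this enzyme, read 10.40, 10.28 and 9.47 against 8.71, 8.07 and 8.38, a ratio of 1.66 ± 0.56 (SD, n = 3; adjusted p = 0.0085, limma). A second, dimmer Azin1 probe was well above background on 2 of 3 polysome arrays and gave -1.36. The 2 probes of this gene had opposite signs, but the second became a member through whole muscle only, which favours a low ratio. Atf4, the stress factor with upstream open reading frames, was at 0.28 (adjusted p = 0.48, limma) with a second probe at -1.15 (adjusted p = 0.12, limma). As classes, upstream-ORF stress mRNAs (2 higher and 0 lower of 13, median 0.51), iron-responsive mRNAs (1 and 1 of 7, median 0.44), the polyamine pathway (2 and 1 of 7, median 0.45) and selenoprotein mRNAs (3 and 0 of 14, median 0.35) were small. Over all genes 14.5% were higher and 9.95% lower. The median of the iron-responsive mRNAs was 0.23, -0.10 and 0.0086 in mice 1, 2 and 3, and 0.065 without mouse 3. In the Het mice it was -0.47. Without mouse 2, 4 stress mRNAs were higher. None of the calls among the stress and selenoprotein mRNAs held without each mouse.

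Proteasome subunits split in both directions. Of 31 genes, 9 were higher and 5 lower, against 14.5% and 9.95% over all genes, and the median was 0.31 (0.37, 0.18 and 0.32 in mice 1, 2 and 3). Without mouse 1 and without mouse 3 the counts fell to 3 higher and 0 lower. Psmd3, a subunit of the regulatory lid, was highest at 1.45 ± 0.28 (SD, n = 3; adjusted p = 0.0066, limma) and kept its call without each mouse. Psmd14, the deubiquitinase of the same lid, was lowest at -1.46 ± 1.16 (SD, n = 3; adjusted p = 0.039, limma), a call lost without mouse 1 or mouse 3. Clock genes had 4 higher and 0 lower of 9 measured on all 6 arrays (median 0.51), namely the output factors Hlf, Tef, Dbp and the repressor Bhlhe41, against 14.5% higher over all genes. Without mouse 1 a single one was higher and without mouse 3 none, so that no call held without each mouse. Arntl, the core activator of the clock, was well above background on 2 of 3 polysome arrays and is not among the 9. It became a member through whole muscle only, which favours a low ratio, and stood at -1.56 ± 1.04 (SD, n = 3). Immediate early genes had 2 higher and 0 lower of 13, one of them Jun, described below. Atrophy genes (2 higher and 0 lower of 22), extracellular matrix genes (5 and 1 of 22) and myogenic regulators (3 and 1 of 14) had medians of 0.10, 0.13 and 0.39. Among the last, follistatin Fst, which binds and blocks myostatin, was at 1.77 ± 0.74 (SD, n = 3; adjusted p = 0.012, limma). Myostatin Mstn itself was well above background on 2 of 3 polysome arrays, where the array of mouse 2 read 1.75 and the others 5.90 and 6.88, against 7.83, 8.23 and 8.69 in whole muscle.

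Replication-dependent histone mRNAs, which end in a stem-loop in place of a poly(A) tail and come in near-identical copies, were high, but chiefly in one mouse. Of 28 measured on all 6 arrays, 13 were higher and 0 lower, against 14.5% and 9.95% over all genes, and the median log2 ratio was 1.22. It was 0.77 in mouse 1, 2.15 in mouse 2 and 0.33 in mouse 3. Over all 31 tested histones it was 1.24, with 1.62 within slide 1, which held the polysome array of mouse 2, and 0.32 within slide 2. Without mouse 2 the median was 0.55, with 7 higher and 2 lower against 11% and 9.34% over all genes. Their probes had a median GC of 55%, against 43.3% over all genes. Hist1h4c read 6.24, 9.61 and 6.26 on polysome arrays and 4.76, 4.87 and 4.96 on whole-muscle arrays. The array of mouse 2 was far above the other two, and the ratio of 2.51 ± 1.94 (SD, n = 3; adjusted p = 0.028, limma) was lost without mouse 1 or without mouse 3. Hist1h2ak and Hist2h2ac, at 1.40 and 1.39, were the 2 members whose calls held without each mouse, and they had nearly equal signals on every array. Whether the state of the RNA on that array had a part in the histone values was not tested.

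Red blood cell transcripts were also highest in mouse 2. Of 7 measured on all 6 arrays, 3 were higher and 0 lower, against 14.5% and 9.95% over all genes, and the medians were 0.64, 2.33 and 0.43 in mice 1, 2 and 3. Without mouse 2 the median was 0.60 and 1 was higher, against 11% over all genes. Haemoglobin genes have near-identical copies that a probe may not separate. Hba-a2, an α-globin, read 16.73, 17.43 and 16.21 on polysome arrays and 15.23, 14.98 and 15.78 on whole-muscle arrays, a ratio of 1.46 ± 1.01 (SD, n = 3; adjusted p = 0.030, limma) that was lost without mouse 2 (adjusted p = 0.079, limma) and without mouse 1 (adjusted p = 0.093, limma). In the Het mice the median of the class was -0.13.

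Markers of some other cell types were also higher in polysomal RNA. The 4 smooth muscle markers had 3 called higher, against 14.5% over all genes, and a median of 1.12, led by Acta2 at 1.81 ± 0.62 (SD, n = 3; adjusted p = 0.0084, limma). The 4 measured adipocyte markers had 3 called higher and a median of 1.08, led by Cfd, the adipsin gene, at 1.73 ± 0.14 (SD, n = 3; adjusted p = 0.0071, limma). Without mouse 3, 1 smooth muscle and 1 adipocyte marker were called, and without mouse 1, 2 and 1. Of 5 fibroblast markers 2 were higher (median 0.47), with Dcn, which codes for decorin, at 1.49 and Col1a1 at 0.47 (adjusted p = 0.014 and 0.18, limma). Lum of the same list went the other way, at -0.62 (adjusted p = 0.41, limma), with -2.46 in mouse 2. Without mouse 1 no fibroblast marker was called, and without mouse 3 a single one was. Macrophage and endothelial markers had 1 higher each, of 6 and 4, and Schwann cell markers had none of 4. The summed linear signal of the fibre markers was between 1110980 and 1171930 on polysome arrays and between 1124490 and 1280730 on whole-muscle arrays. The sums did not overlap for adipocyte markers (10153 to 27004 against 4278 to 8312), smooth muscle markers (4890 to 7482 against 1801 to 2996), fibroblast markers (40885 to 44256 against 16813 to 24148) and red blood cell markers (26303 to 56535 against 12452 to 19688). Such a sum is set mostly by the brightest markers of its list. Lep, Tek and Mbp of the marker lists were not members. The part of cell composition in any class ratio was not tested.

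Non-coding RNAs lay on both sides. Of 7 nuclear and imprinted non-coding RNAs measured on all 6 arrays, 2 were higher and 2 lower, against 14.5% and 9.95% over all genes, and the median was 0.22. Another 3 passed the background filter in whole muscle only, which favours a low ratio, and were not counted. The same held for 4 of 5 tested host RNAs of small nucleolar RNAs, and the one measured on all 6 arrays, Snhg10, was higher at 0.98 (adjusted p = 0.018, limma), a call lost without mouse 1, without mouse 3 and without the pairing (adjusted p = 0.084, limma). Of 3 small non-coding RNAs measured on all 6 arrays, 1 was higher and 2 lower. Rnu3b1, whose probe is printed above, read 4.68, 5.20 and 4.56 on polysome arrays and 7.58, 9.39 and 8.18 on whole-muscle arrays. The groups were far apart and the log2 ratio was -3.57 ± 0.65 (SD, n = 3; adjusted p = 0.0045, limma), 11.9-fold lower. H19, a spliced imprinted non-coding RNA of the cytoplasm, read 9.85, 9.59 and 10.77 against 12.90, 13.23 and 12.55, a ratio of -2.83 ± 0.95 (SD, n = 3; adjusted p = 0.0093, limma), and its 5 other probes gave between -4.52 and -3.20. Rmrp, the RNA of an RNA-processing ribonucleoprotein, was well above background on all 3 whole-muscle arrays and on no polysome array. It became a member through whole muscle only, which favours a low ratio, and its whole-muscle signal was at least 1.34-fold higher. Malat1, a nuclear RNA, was well above background on 2 of 3 polysome arrays, so it too became a member through whole muscle only. It gave -1.28 and was not called (adjusted p = 0.16, limma). The telomerase RNA Terc was higher, at 1.002 ± 0.44 (SD, n = 3; adjusted p = 0.022, limma), a call lost without mouse 1, without mouse 3 and without the pairing (adjusted p = 0.18, limma). Its polysome signals were 8.73, 9.56 and 9.12 against 7.41, 9.06 and 7.94, so that the groups overlapped while each mouse was higher on polysomes.

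By kind of accession, 9872 probes for RefSeq coding transcripts were measured on all 6 arrays, and 14.2% were higher and 8.78% lower (median 0.14). Of 207 RefSeq non-coding probes, 20 (9.66%) were higher and 41 (19.8%) lower. Of 2107 probes of other or unknown kind, 11.2% were higher and 24.9% lower, the largest lower share of the 5 kinds. Of 387 probes with an Ensembl transcript only, 12.1% were higher and 16.8% lower. The 1726 probes for unnamed lincRNA loci did not follow the RefSeq non-coding probes. Of these, 316 (18.3%) were higher and 80 (4.63%) lower, with a median of 0.35 (0.17, 0.48 and 0.37 in mice 1, 2 and 3), against 14.2% and 11% over all measured probes. Without mouse 2, 17.7% of them were higher and 6.26% lower, against 11.2% and 11%. Their median probe GC was 45%, and their median signal of 6.496 on the log2 scale was the lowest of the 5 kinds.

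The single genes with the highest ratios were drawn from 1877 genes that had a RefSeq accession, were called on all 6 arrays and kept one sign in all 3 mice. The 12 highest ran from Ino80b, a subunit of the INO80 chromatin remodeller, at 2.83 down to the transcription factor Jun at 2.02. Ino80b read 8.48, 9.91 and 8.17 on polysome arrays and 6.14, 6.02 and 5.91 on whole-muscle arrays, a ratio of 2.83 ± 0.92 (SD, n = 3; adjusted p = 0.0046, limma), 7.11-fold higher. Between them came Ptn, a secreted growth factor (2.54), Hist1h4c, Tmem233 (2.48), the homeodomain protein Hopx (2.36), the CBP-binding regulator Cited2 (2.34), the LIM protein Crip1 (2.29), the chromatin protein Hmgb1 (2.26), the matrix protein Podn (2.26), the G protein subunit Gnai2 (2.25) and the pericyte proteoglycan Cspg4 (2.15). Crip1, for example, read 14.03, 13.61 and 13.43 against 11.76, 11.02 and 11.44, a ratio of 2.29 ± 0.30 (SD, n = 3; adjusted p = 0.0035, limma). Jun read 12.05, 13.15 and 12.30 against 10.42, 10.59 and 10.43. The other probes of some of these genes were lower. Of the 8 Hmgb1 probes, 3 were called higher and the lowest gave -0.85, and a second Hopx probe gave 0.97 (adjusted p = 0.11, limma).

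The 12 lowest ran from Ccng1, cyclin G1, at -3.80 to Tmem126a, a mitochondrial membrane protein, at -2.88. Ccng1 read 8.07, 6.31 and 8.72 on polysome arrays and 11.25, 11.52 and 11.72 on whole-muscle arrays, a ratio of -3.80 ± 1.22 (SD, n = 3; adjusted p = 0.0040, limma), 13.9-fold lower. The others were Rnu3b1, Gm5779 (-3.42), 4930453N24Rik (-3.29), the cGMP phosphodiesterase Pde5a (-3.26), Eif3e, the vitamin D hydroxylase Cyp2r1 (-3.12), Atp2a1, the phospholipid enzyme Chpt1 (-2.99), the spliceosome protein Zcrb1 (-2.90) and the adiponectin receptor Adipor1 (-2.88). Pde5a and Tmem126a varied least, with 4.68, 4.78 and 5.04 against 7.98, 8.16 and 8.13 for the first and a ratio of -2.88 ± 0.11 (SD, n = 3; adjusted p = 0.0025, limma) for the second. In each of the 24 genes every polysome array lay beyond every whole-muscle array. The calls of Chpt1, Hist1h4c and Ptn were lost without mouse 3, that of Hist1h4c also without mouse 1, and the other 21 held without each mouse. All 24 were chosen by their ratio, so their size is a description.

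The ratio moved with features of the probe, and differently in each mouse. Over the probes measured on all 6 arrays, the median ratio rose from -0.05 where probe GC was under 40% to 0.37 where it was 55% or more, and the share called higher rose from 9.03% to 21.0%. In mouse 2 the medians went from -0.29 to 0.64 and in mouse 3 from -0.06 to 0.40, whereas in mouse 1 they went from 0.26 to 0.04. With the position of the probe in coding transcripts, mouse 2 went from 0.58 for probes that start within the first 500 bases to -0.11 beyond 4000 bases, and mouse 1 from -0.12 to 0.35. Ribosomal protein and complex I probes had the same median GC, 45%, and complex II to V probes 41.7%, while mitochondrial DNA probes had 35%. Of 1431 coding genes with several measured probes, the probes differed by a median of 0.49 on the log2 scale, and 12 genes had probes called in opposite directions. The part of probe GC and position in the class ratios was not tested.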

How the data were processed

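The authors hybridised Cy3-labelled cRNA, 1 sample per array, and deposited scanner files from Agilent Feature Extraction 11.0.1.1, whose intensity values (processed signal) are background-subtracted within each array. The authors' deposited table of log2 values, quantile normalized per the methods, served as an alternative only. Its columns ranked spots exactly as the raw median signal of the same arrays did.

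From the processed signal, flagged spots were left out, spots of one probe were averaged on the log2 scale, and the 12 polysome and whole-muscle arrays were quantile normalized (R 4.3.3, limma 3.58.1). Monosome arrays were not used here. Per mouse, log2 whole-muscle signal was subtracted from log2 polysome signal, and lmFit and eBayes tested the WT mean, with one mean per genotype and a spread shared over 6 mice. Benjamini-Hochberg adjustment ran over all 18554 member probes with complete values (43 members lacked one), 2-sided, at 0.05. An exact sign-flip test over 3 pairs cannot go below 0.25. The depth of an array has no count; 30.1 to 45.9% of spots were well above background on the WT arrays, and the number of mice limits precision. The study's own test, unpaired, was an alternative.

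The study's design states that each mouse gave every RNA, and equal replicate numbers were taken to mark one mouse, which the labels do not spell out. Deviations from the group means correlated at 0.23, 0.29 and -0.01 between the arrays of mice 1, 2 and 3. Between arrays with unequal replicate numbers the values ran from -0.40 to 0.20, so they do not settle the pairing. Of 29796 RefSeq-annotated probes, 28026 were found in the RefSeq gene table, and 26375 kept their symbol. Named genes were the 12 highest and 12 lowest ratios, the extremes of each list and a fixed set, and the few others named in the report were picked after their values were seen. The members and lists were chosen with earlier results of these data known. The fit was tested on simulated data. Yes/no spot flags from the deposited files set the filter. Loading by protein length was not analysed here, and 1 gene is not reported here. Named genes without a sentence of their own enter the counts only.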

Additional observations from a re-analysis of the deposited data

Results flagged for a closer look

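In 7 of the 104 named genes all 3 WT mice had one sign and all 3 Het mice the other. The same count was not made over all genes. The difference of the genotype means (Het minus WT, log2) was not called in any of the 7 by limma with all 6 mice. It was -1.44 for Dleu2 (adjusted p = 0.094), -1.69 for Snhg10 (adjusted p = 0.094) and -1.48 for Terc (adjusted p = 0.095), all higher on polysomes in WT and lower in Het. Without WT mouse 2 the differences of Snhg10 (-1.77) and Terc (-1.73) were called, both at an adjusted p of 0.043 in limma, and that of Dleu2 (-1.49) was not (adjusted p = 0.057). With all 6 mice the difference was 0.65 for Bpgm (adjusted p = 0.31), 1.71 for Ckm (adjusted p = 0.22), 1.64 for Etfdh (adjusted p = 0.29) and 1.64 for Sqstm1 (adjusted p = 0.23), all lower in WT and higher in Het. The median of the 10 skeletal muscle fibre markers was also below 0 in every WT mouse and above 0 in every Het mouse, with medians of -0.29 and 0.11 and a difference of 0.41 that was not tested. Without WT mouse 2 the WT median was 0.07, above 0. No value was tested as an outlier, since each group held 3 arrays.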

How the results depend on the processing

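The paired fit shares its spread with the Het mice. With the 3 WT ratios alone, 130 probes were called higher and 628 lower (93 and 429 of those measured on all 6 WT arrays), against 2283 and 2264 (2024 and 1578) with both genotypes. Without the pairing, that is with no replicate block, the counts were 1455 and 2140 (1326 higher on all 6 arrays), with the slide as a term 1410 and 1553 (1252 higher on all 6), and with no filter on dim probes 763 and 992 (680 and 775 on all 6). Within slide 1 and within slide 2, where the arrays cannot be paired, 0 probes were called in either direction by limma, and 1509 and 2655 had an unadjusted p below 0.05. Leaving out each mouse in turn, Het mice included, gave 328 to 1806 higher and 824 to 2121 lower over all members, and 299 to 1600 and 594 to 1574 on all 6 arrays, with the lowest values without WT mouse 3. The methods' t-test called 2186 probes higher and 2389 lower at an unadjusted p below 0.05, and 184 higher and 459 lower after Benjamini-Hochberg. The count of probes that differed between Het and WT, 0 in the paired fit, was 421 with normexp background, 439 with the authors' processed table, 608 when only probes well above background on all 12 arrays were tested, 1 with no replicate block, and 0 to 504 with one mouse left out, 504 being without WT mouse 2.

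Over the gene lists, 8 medians moved by more than the SD of the 3 mice within slide 1, 9 within slide 2, 8 with the authors' table and 8 with the mean over all probes of a gene, and no median of the ribosomal protein, TOP, mitochondrial DNA, complex I, complex II to V or histone lists changed sign under these alternatives. The elongation factor and TOP list went from -0.47 to -1.03 with the mean over all probes of a gene, and mitochondrial DNA transcripts from -3.82 to -2.53 within slide 2. Complex I subunits went from 0.59 to 0.39 with 75th percentile scaling and 0.45 with the authors' table, and ranged from 0.54 to 0.71 with one mouse left out. Complex II to V subunits went from 0.65 to 0.40 with 75th percentile scaling.

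Of the 71 called named genes, none changed sign under another scaling or background, and Tnnt1 went to -0.023 within slide 2. The other sign changes reported here were in genes that were not called. Within a slide they were Adipoq (-0.16 within slide 1), Gbe1 (0.080 within slide 2), Hbb-b1 (-0.13), Lum (0.72) and Sdha (0.059), the last 3 also within slide 2. With 75th percentile scaling the sign of Atf4 changed (-0.057). With one mouse left out the ranges were -0.086 to 0.56 for Atf4, -0.081 to 0.41 for Cdh5, -0.89 to 1.18 for Hbb-b1, -1.21 to 0.30 for Lum, -0.86 to 0.055 for Myh4, -0.30 to 0.16 for Rpl3, -0.29 to 0.047 for Sdha and -0.92 to 0.42 for Ttn. The cause of these moves was not tested. Of the named genes that were not called, 13 were called in the same direction with normexp background and 14 with the authors' table, among them ND6, Eef2, Ckm and Mb with both and Myh4 with the authors' table (-1.18). Of the 71 calls, all were lost within slide 1 and within slide 2, 56 with the methods' t-test after Benjamini-Hochberg, 32 with no filter on dim probes, 34 with WT ratios alone, 20 without WT mouse 1, 3 without WT mouse 2 and 25 without WT mouse 3. Loading by protein length was not run. The array of WT polysome 2 had the fewest spots above background of the 6 WT arrays (30.1%), and signal near background limits ratios of dim transcripts.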
